A study of Mus musculus with 8 samples.

Results

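The 10 genes described here are core pluripotency factors and stem cell markers of the mouse: Pou5f1 (which encodes OCT4), Nanog, Sox2, Sall4, Esrrb, Klf4, Zfp42 (REX1), Tcl1, Fbxo15 and Tdgf1 (CRIPTO). They were picked by symbol from a table of 8125 genes, and all 10 were listed with at least 1 read in each of 8 libraries. The study measured mRNA abundance and translation efficiency by ribosome profiling in cells that lack Dis3l2, an exoribonuclease that degrades uridylated non-coding RNA. Knockout cells (Dis3l2 -/-, made by CRISPR/Cas9) were compared with heterozygous cells as control (Dis3l2 +/-), so the control also carries 1 disrupted allele. Both genotypes were TC1 embryonic stem cells kept undifferentiated in LIF and serum on gelatin without feeder cells, and both were treated with cycloheximide to pause ribosomes before lysis. Each genotype had 2 input libraries of rRNA-depleted mRNA and 2 RPF libraries, made from 2 biological replicates of the cultures. RPFs are ribosome-protected fragments, the stretches of message left after nuclease has digested whatever no ribosome covers. The sources used here do not give how many clones stand behind each genotype.

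Pluripotent stem cells are held in their state by a small network of transcription factors that bind each other's genes and their own. OCT4, SOX2 and NANOG form its centre, SALL4, ESRRB and KLF4 bind many of the same enhancers, and LIF acts through STAT3 to keep several of them on. Zfp42, Tcl1, Fbxo15 and Tdgf1 are targets of this network, and they are silenced as cells leave the pluripotent state, which makes them common markers of undifferentiated cultures.

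The values in the table were whole reads scaled by a constant for each library, without regard to gene length. They are called units here, and different genes are compared only per kilobase. The input libraries held between 8382211 and 33609787 reads, the control RPF libraries 558962 and 1126782, and the knockout RPF libraries 268255 and 140163. A single read was thus worth 0.063 to 0.25 units in input but 8.22 and 15.6 units in the knockout RPF libraries, and the RPF values of the weakest genes rested on few reads there (17 and 18 for Tcl1, 45 and 22 for Klf4, 39 and 23 for Fbxo15). Translation efficiency (TE) was calculated as RPF over input, with both values taken from libraries of the same genotype and number. No value of Dis3l2 was used here, and the genotype names of the libraries therefore went unchecked against the disrupted gene.

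The start codon and its surroundings are shown for the members at both ends of the TE order and for those whose values the text returns to, since this is where ribosomes enter the coding sequence. Each run is read from the GENCODE M21 transcript (GRCm38) and holds 30 bases, 5′ to 3′. Capitals mark the base at position -3, the ATG and the base at position 4, counted from the A of the ATG, the positions at which a purine and a G are favoured in vertebrate mRNAs.
Nanog: cacactGacATGAgtgtgggtcttcctggt
Sall4: gcgcgcAccATGTcgaggcgcaagcaggcg
Esrrb: acgggaCtgATGGacgtgtccgaactctgc
Tdgf1: ccgtcgAagATGGggtacttctcatccagt
Sox2: agcgccCgcATGTataacatgatggagacg
Pou5f1: accttcCccATGGctggacacctggcttca

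The start codons lie on chromosome 6 at 122707783 to 122707785 (+ strand, Nanog), chromosome 2 at 168767027 to 168767029 (- strand, Sall4), chromosome 12 at 86421915 to 86421917 (+, Esrrb), chromosome 9 at 110945841 to 110945843 (-, Tdgf1), chromosome 3 at 34650416 to 34650418 (+, Sox2) and chromosome 17 at 35506100 to 35506102 (+, Pou5f1). Of the 9 members whose chosen transcript has an annotated 5′ leader, 5 had a purine at position -3, against 87.9% of 7988 listed genes, and 4 had a G at position 4, against 54.4%. Both features stood together in 2 members, Tcl1 and Tdgf1, against 47.8% of genes. Among the 6 printed genes Nanog, Sall4 and Tdgf1 had a purine at position -3, and Esrrb, Sox2 and Pou5f1 had a C. In control Esrrb had a TE as high as Nanog and Sall4, and Pou5f1 had the lowest of the set. Whether these bases bear on TE was not tested.

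Pou5f1 (chromosome 17, 35506018 to 35510772, + strand, GRCm38) encodes the POU-domain factor without which a pluripotent inner cell mass does not form. Its input values were 3972.5 and 4061.4 units in control and 3956.2 and 3894.4 units in knockout, and its RPF values were 1808 and 1922 units in control and 1545 and 1586 units in knockout. The knockout libraries lay just below the control libraries in input and below them in RPF, with no overlap in either. The knockout RPF values rested on 188 and 102 reads. The 95% counting interval of knockout RPF replicate 2, 1293.3 to 1925.5 units, covered both control values. On the scale of log2(value + 10), on which all limma changes are given, the change was -0.03 in input (95% interval -0.17 to 0.10) and -0.25 in RPF (-0.60 to 0.10), with adjusted p-values of 0.858 and 0.604 (limma with Benjamini-Hochberg adjustment). Here and below a negative change means lower in the libraries named knockout. The sign of the deposited fold change of TE runs the other way for 9 of these 10 genes and for 7533 of the 8125 listed genes, and these values do not settle which of them carries the intended direction, so every signed change would turn with the library names. As these are bulk samples, fewer cells that express a gene and less RNA per cell cannot be told apart.

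Nanog (chromosome 6, 122707489 to 122714633, +) encodes the homeodomain factor that stabilises self-renewal, and its level is known to vary between cells of one culture. Nanog had input values of 496 and 472 units in control and 493 and 449 units in knockout, and its RPF values 1776 and 1497 units in control and 1586 and 1197 units in knockout. The groups overlapped in both kinds of library. The changes were -0.04 in input (-0.19 to 0.11) and -0.24 in RPF (-0.65 to 0.16), and neither passed (adjusted p = 0.843 and 0.680, limma).

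Sox2 (chromosome 3, 34650405 to 34652461, +) encodes the HMG-box partner of OCT4. In input it had 617 and 660 units in control and 622 and 615 units in knockout, which overlapped, and its RPF values were 807 and 719 units in control and 822 and 917 units in knockout, which did not. The changes were -0.04 in input (-0.18 to 0.10; adjusted p = 0.814) and 0.19 in RPF (-0.25 to 0.62; adjusted p = 0.785). The gene lies inside Sox2ot, a longer non-coding gene on the same strand, and how reads that both could own were counted is not given in the sources used here.

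Sall4 (chromosome 2, 168748332 to 168767943, -) encodes a zinc-finger factor that binds OCT4 and NANOG. Input was 382 and 319 units in control and 310 and 300.03 units in knockout, and its RPF values 989 and 1189 units in control and 1126 and 1011 units in knockout. In input both knockout values were below both control values, and in RPF the groups overlapped. The input change was -0.19 (-0.37 to -0.01; adjusted p = 0.377) and the RPF change -0.02 (-0.43 to 0.39; adjusted p = 0.982).

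Esrrb (chromosome 12, 86361117 to 86521628, +) encodes an orphan nuclear receptor that can stand in for Nanog in self-renewal. For Esrrb the input libraries gave 465 and 390 units in control and 362 and 374 units in knockout, and its RPF values 1272 and 1410 units in control and 1405 and 1586 units in knockout. Input was lower in both knockout libraries, and the RPF values met, control 2 lying just above knockout 1. The changes were -0.21 in input (-0.39 to -0.03; adjusted p = 0.340) and 0.16 in RPF (-0.22 to 0.53; adjusted p = 0.796). Control input replicate 1 was the highest of the input libraries for both Sall4 and Esrrb. Without it their input changes were -0.065 and -0.083 (adjusted p = 0.827 and 0.749), and without control input replicate 2, which leaves it as the only control, they were -0.32 and -0.33 (adjusted p = 0.0088 and 0.0051). Over all 13 alternatives their adjusted p-values ran from 0.0088 to 0.827 and from 0.0051 to 0.749.

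Klf4 (chromosome 4, 55527143 to 55532466, -) encodes a Krüppel-like factor that LIF and STAT3 maintain. It was the weakest of the 10 genes per kilobase in input. Klf4 had 134 and 131 units in control and 144 and 144 units of input in knockout, and its RPF values were 193 and 266 units in control and 370 and 342 units in knockout. Both knockout values exceeded both control values in each kind of library. The changes were 0.11 in input (-0.04 to 0.27; adjusted p = 0.530) and 0.63 in RPF (0.01 to 1.25; adjusted p = 0.451), so the RPF interval reached almost to 0. Knockout RPF replicate 2 held 22 reads of Klf4, and its counting interval, 214 to 518 units, covered the control value of 266 units.

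Zfp42 (chromosome 8, 43295063 to 43306980, -) encodes the zinc-finger protein REX1, a marker of the naive state. Input values of 3801 and 4141 units in control and 4245 and 4208 units in knockout were measured, and RPF values of 4056 and 3807 units in control and 3155 and 3421 units in knockout. Input was slightly higher and RPF lower in both knockout libraries. The changes were 0.09 in input (-0.05 to 0.24; adjusted p = 0.592) and -0.26 in RPF (-0.56 to 0.04; adjusted p = 0.540).

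Tcl1 (chromosome 12, 105216750 to 105222793, -) encodes a small co-activator of the kinase AKT and is a target of OCT4. Tcl1 had input values of 160 and 151 units in control and 122 and 116 units in knockout. Its RPF values were 276 and 248 units in control and 140 and 280 units in knockout, so that the input groups were apart while the RPF groups overlapped. The input change of -0.36 (-0.52 to -0.19) was as large as that of Fbxo15 but had an adjusted p of 0.105 (limma), and the RPF change was -0.38 (-1.13 to 0.36; adjusted p = 0.735). The knockout RPF values rested on 17 and 18 reads, with counting intervals of 81.4 to 224 and 166 to 442 units. Without control input replicate 2 the input change was -0.40 with an adjusted p of 0.0041, and over 13 alternatives the adjusted p ran from 0.0041 to 0.299. Without knockout RPF replicate 2 the RPF change was -0.86 (adjusted p = 0.039) and without knockout RPF replicate 1 it was 0.09 (adjusted p = 0.863), within a range of 0.039 to 0.9998 over 12 alternatives.

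Fbxo15 (chromosome 18, 84934782 to 84981473, +) encodes an F-box protein, a substrate adaptor of ubiquitin ligases, and is a classical reporter of the pluripotent state. It was the member with the firmest change of input. The input libraries held 1174 and 1146 units in control and 917 and 917 units in knockout, a ratio of 0.791. The spread between replicates was small beside this gap. The means were 1160 ± 20.1 units in control and 917 ± 0.401 units in knockout (SD, n = 2). The knockout values lay closer together than counting error allows for, with counting intervals of 888 to 946 and 902 to 932 units. Those of control were 1141 to 1208 and 1113 to 1179 units. The change was -0.34 (-0.47 to -0.20) and its adjusted p 0.048 (limma). The adjusted p was 0.069 with a stricter filter, 0.062 with thinned reads, and 0.120 and 0.129 without knockout input replicate 1 or 2, and it ranged from 0.0012 to 0.129 over 13 alternatives, of which 9 kept it under 0.05.

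In RPF, Fbxo15 had 851 and 553 units in control and 320 and 358 units in knockout, from 216, 285, 39 and 23 reads. Both knockout values were far below both control values, but the control libraries differed from each other by 1.54-fold. The change was -0.998 (-1.55 to -0.44) with an adjusted p of 0.138 in limma and of 0.012 in edgeR, and over 13 alternatives the adjusted p ran from 4.4e-04 to 0.9998, with 5 under 0.05. Leaving out knockout RPF replicate 1 or 2, so that 1 library stood for knockout, gave changes of -0.92 and -1.07. Many other genes passed as well in those fits.

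Tdgf1 (chromosome 9, 110939603 to 110946158, -) encodes the coreceptor of NODAL, a protein anchored in the cell surface by a lipid, and it is the only member of the set whose product enters the secretory pathway through a signal peptide. Input stood at 801 and 765 units in control and 859 and 848 units in knockout. Its RPF values were 1611 and 1681 units in control and 1002 and 1073 units in knockout, from 409, 867, 122 and 69 reads. Input and RPF differed in direction, as both knockout values were above both control values in input and below them in RPF. The change was 0.12 in input (-0.01 to 0.26; adjusted p = 0.437) and -0.66 in RPF (-1.04 to -0.29), where the adjusted p was 0.153 in limma and 0.041 in edgeR. With thinned reads the adjusted p in RPF was 0.383 (limma). Of 13 alternatives 5 gave one under 0.05, among them the fits without knockout RPF replicate 1 or 2. The changes there were -0.61 and -0.71, and many other genes passed as well.

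**Figure D1:**
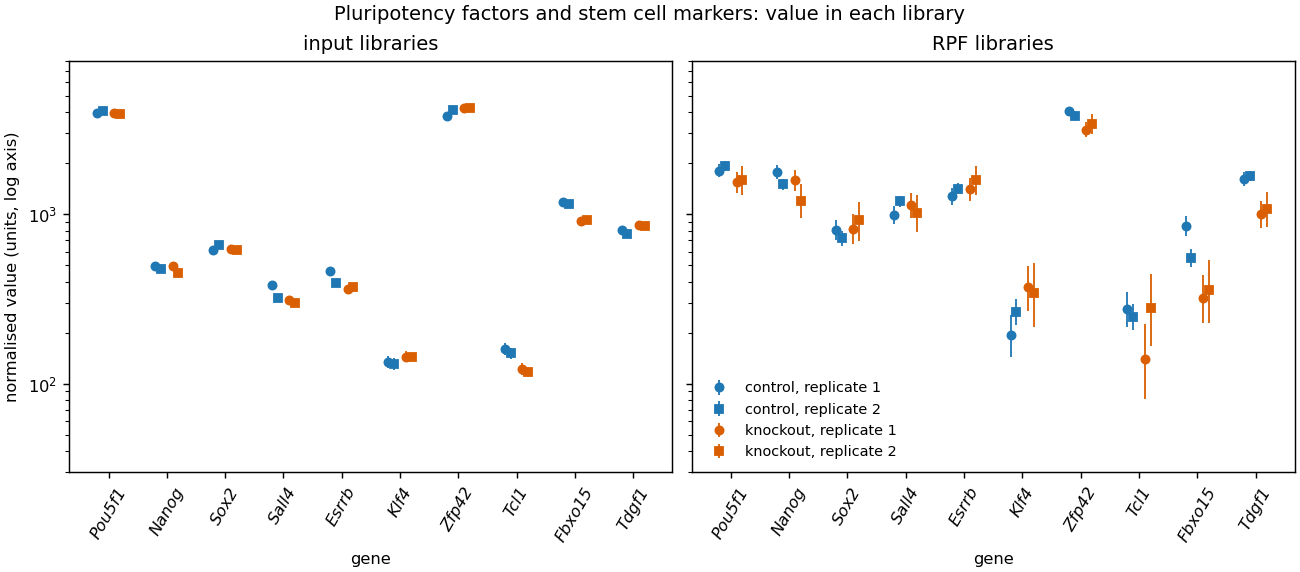
Normalised values of the 10 genes (log axis) in the input libraries (left) and RPF libraries (right), with control in blue and knockout in orange, circles for replicate 1 and squares for replicate 2, and bars for the 95% counting interval of each library. In input the knockout points of Fbxo15 (917 and 917 units) lie apart from the control points (1174 and 1146 units), and in RPF the knockout values of Fbxo15 and Tdgf1 lie below both control values.

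Counted over the set, both knockout values lay below both control values for 5 of 10 members in input (21.1% of the 7946 genes tested) and above them for 3 (22.9%). In RPF the same counts were 4 below (20.8% of 6260 genes) and 2 above (21.6%). The members' median change was -0.04 in input and -0.25 in RPF, against 0.00 and -0.02 over all genes tested. All 10 members passed the filter on low values in each comparison. In input limma called 1 member, Fbxo15, beside 27 genes in all (0.34%), and edgeR called the same member beside 26 genes (0.327%). At an unadjusted p under 0.05 (limma) were 4 of 10 members in input, against 12.7% of all genes tested. These were Fbxo15, Tcl1, Esrrb and Sall4, all lower in knockout. In RPF limma called 0 members beside 39 genes (0.623%), with 3 of 10 members at an unadjusted p under 0.05 against 10.8% of all genes tested. For the same libraries edgeR called Fbxo15 and Tdgf1 beside 118 genes (1.88%). DESeq2 called 0 members beside 58 genes (0.927%) and gave no adjusted p for Klf4 and Tcl1. The reads recovered from the deposited values, on which edgeR and DESeq2 ran, came out whole for 100% of values within 0.02 read.

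Per kilobase the input levels of the members spanned a wide range. Pou5f1 stood at 2949 ± 46.2 units per kilobase of transcript in control (SD, n = 2), rank 37 of the 8117 genes with a known length, and Zfp42 at 2162 ± 131, rank 63. Fbxo15 followed at 807 ± 13.95, Tdgf1 at 405 ± 13.2, Sox2 at 310 ± 14.98 and Nanog at 219 ± 7.81. Tcl1 (111 ± 4.82) and Esrrb (102 ± 12.6) overlapped, and Sall4 (69.1 ± 8.75) and Klf4 (43.7 ± 0.741) were lowest, Klf4 lying near the middle of all genes (percentile 54.6). Apart from Tcl1 and Esrrb, no neighbours in this order overlapped between their control libraries, and in knockout the order was the same but for the exchange of that pair.

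The RPF levels per kilobase of coding sequence had a different order. Zfp42 led with 4535 ± 204 units in control, followed by Tdgf1 with 3190 ± 96.7. Nanog (1783 ± 215) and Pou5f1 (1761 ± 76.2) overlapped, although Pou5f1 had far more input per kilobase. Esrrb had 982 ± 71.4, Sox2 795 ± 64.7 and Tcl1 746 ± 55.3, the latter pair overlapping, and Fbxo15 (488 ± 147), Sall4 (340 ± 44.2) and Klf4 (158 ± 35.4) came last. In knockout Fbxo15 stood behind Sall4 and Klf4, at 236 ± 18.3 units, and it overlapped Klf4 (245 ± 13.5). The transcript of Fbxo15 that was used has no annotated UTR, so its length is a coding length and its input level per kilobase is not on the same footing as the others.

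**Figure D2:**
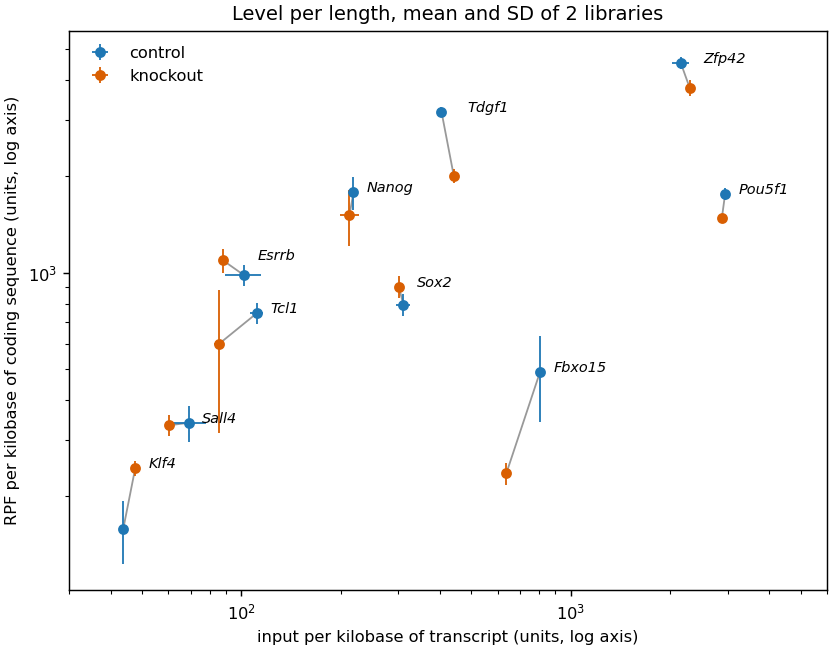
Input per kilobase of transcript against RPF per kilobase of coding sequence (units, both axes logarithmic) for the 10 genes, as means with SD of 2 libraries, control in blue and knockout in orange, joined by a line. Pou5f1 and Nanog sit at the same height with 2949 and 219 units of input in control, and Fbxo15 and Tdgf1 have the longest downward lines.

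TE ranged over the set from 0.464 ± 0.0128 in Pou5f1 to 3.38 ± 0.287 in Nanog (control, SD, n = 2), where the median of all 6240 tested genes was between 1.02 and 1.04 in each pair of libraries. In control Nanog (3.58 and 3.17), Esrrb (2.74 and 3.62) and Sall4 (2.59 and 3.72) formed the top and could not be ordered, as their ranges overlapped. Their values lay between percentiles 93.5 and 97.4 of all tested genes. Tdgf1 (2.01 and 2.198) and Klf4 (1.44 and 2.03) overlapped, as did Klf4 and Tcl1 (1.72 and 1.65). Sox2 (1.31 and 1.09) and Zfp42 (1.07 and 0.919) lay near the middle of all genes, and Fbxo15 (0.725 and 0.482) and Pou5f1 (0.455 and 0.473) at the bottom.

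Pou5f1, the member with the highest input per kilobase, had the lowest TE of the set in control, at percentiles 7.15 and 6.73. In knockout it stood at percentiles 7.13 and 8.65, and Fbxo15 (0.350 and 0.390) lay just below it (0.390 and 0.407). RPFs were taken over the coding sequence only, while the sources used here do not state over which part of the transcript input was counted. If that was the whole transcript, TE across genes moves with its coding share, which is 77.8% in Pou5f1 and 26.7% in Tdgf1. With input and RPF each divided by their own length, an alternative chosen after seeing the data, Pou5f1 stood at percentiles between 3.74 and 5.12 and Nanog between 89.4 and 94.9. The members' median log2 TE minus that of all tested genes was 0.68 ± 0.16 for the control pairs and 0.56 ± 0.42 for the knockout pairs (SD, n = 2), and 1.08 ± 0.35 and 1.26 ± 0.10 after the division by length. The counting of reads shared with near-identical copies is not given in the sources used here, and the annotation lists processed copies of Pou5f1, Nanog, Zfp42 and Tdgf1, so the levels of these genes are uncertain to that extent.

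**Figure D3:**
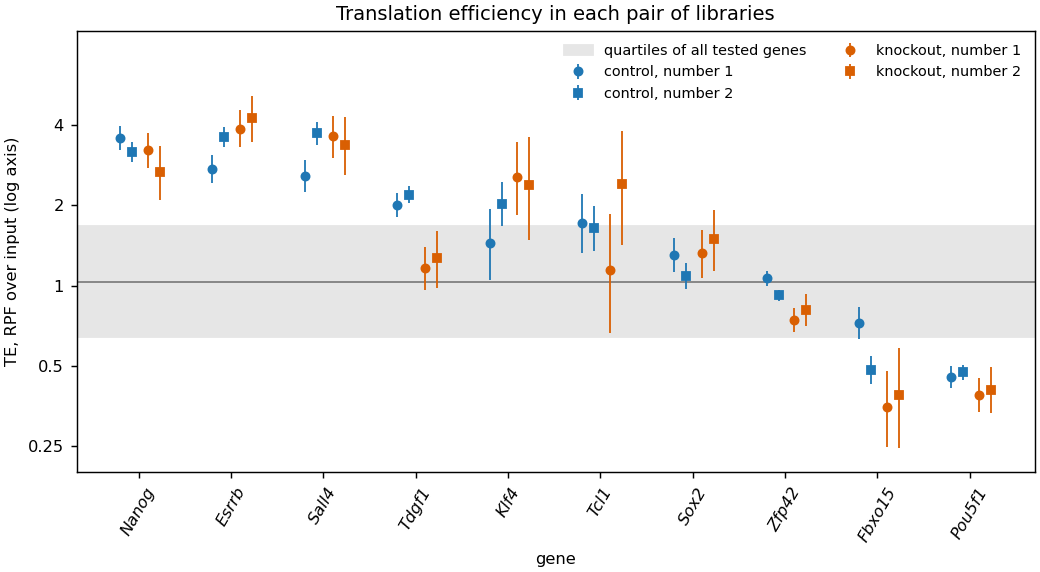
TE (RPF over input, log axis) of the 10 genes in each pair of libraries of the same number, ordered by the control mean, with control in blue, knockout in orange, 95% counting intervals as bars, and a grey band from the lowest lower quartile to the highest upper quartile of all 6240 tested genes (0.645 to 1.68) around their median. Tdgf1 is the gene whose control points both lie above the band and whose knockout points both lie within it.

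Tdgf1 had the change of TE with the smallest p in the set. Its TE was 2.01 and 2.198 in control and 1.17 and 1.27 in knockout, means of 2.10 ± 0.132 and 1.22 ± 0.0697 (SD, n = 2), a ratio of 0.578. The control values stood at percentiles 87.1 and 89.6 of all genes and the knockout values at 57.5 and 62.5, without overlap of the groups or of the counting intervals (1.81 to 2.23 and 2.04 to 2.37 in control, 0.966 to 1.40 and 0.984 to 1.60 in knockout). The change was -0.78 (-1.09 to -0.48) with an unadjusted p of 3.9e-04 and an adjusted p of 0.121 in limma, which did not pass. It passed in edgeR (-0.80, adjusted p = 0.017) and in DESeq2 (-0.81, adjusted p = 9.0e-07), and in limma with a stricter filter (adjusted p = 0.044). Without knockout RPF replicate 1 or 2, which leaves 1 library in that group, the change was -0.74 or -0.83. Many other genes passed as well in those fits, which are among the alternatives that follow. Over 17 alternatives the change stayed between -0.83 and -0.74 and the adjusted p ran from 9.0e-07 to 0.754, with 5 under 0.05.

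No other member passed in TE under any of 17 alternatives. Fbxo15 had 0.725 and 0.482 in control and 0.350 and 0.390 in knockout, lower in both knockout pairs, with a change of -0.66 (-1.28 to -0.05; adjusted p = 0.362, limma). Without control RPF replicate 1 or 2 its change was -0.36 or -0.97 (adjusted p = 0.427 and 0.094), the latter larger than that of Tdgf1 without the same library (-0.75). Zfp42 had 1.07 and 0.919 in control and 0.743 and 0.813 in knockout, a change of -0.35 (-0.62 to -0.08; adjusted p = 0.324), and Pou5f1 had 0.390 and 0.407 in knockout, a change of -0.22 (-0.47 to 0.03; adjusted p = 0.430). These 3 genes and Tdgf1 were the ones whose knockout values both lay below both control values.

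In the opposite direction, Klf4 had 1.44 and 2.03 in control and 2.56 and 2.38 in knockout, a change of 0.51 (-0.09 to 1.12; adjusted p = 0.453). Esrrb had 3.89 and 4.24 in knockout, the highest TE of the set there, a change of 0.36 (-0.06 to 0.78; adjusted p = 0.437). Sox2 had 1.32 and 1.49, a change of 0.23 (-0.14 to 0.60; adjusted p = 0.586), its lower knockout value lying barely above its higher control value. Nanog (3.22 and 2.67 in knockout, -0.20, adjusted p = 0.746), Sall4 (3.63 and 3.37, 0.17, adjusted p = 0.772) and Tcl1 (1.15 and 2.41, -0.03, adjusted p = 0.986) overlapped between genotypes. For Tcl1 the interval, -0.98 to 0.93 on the log2 scale, was the widest of the set.

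Over the set, 4 members had lower and 3 higher TE in both knockout pairs, and these shares can be read against 20.8% and 21% of all 6240 genes tested. The median change was -0.11, against -0.02 over all genes. limma called 0 genes (0%) and so 0 members, with 814 genes (13%) and 3 of 10 members (Tdgf1, Zfp42 and Fbxo15) at an unadjusted p under 0.05. edgeR called 72 genes (1.15%) and DESeq2 190 (3.04%), and each called 1 member, Tdgf1. With 2 libraries a side, an exact permutation test cannot reach 0.05 for a single gene. All p-values rest on the spread between libraries of these cultures, counting noise included, and cover no other cultures or clones.

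**Figure D4:**
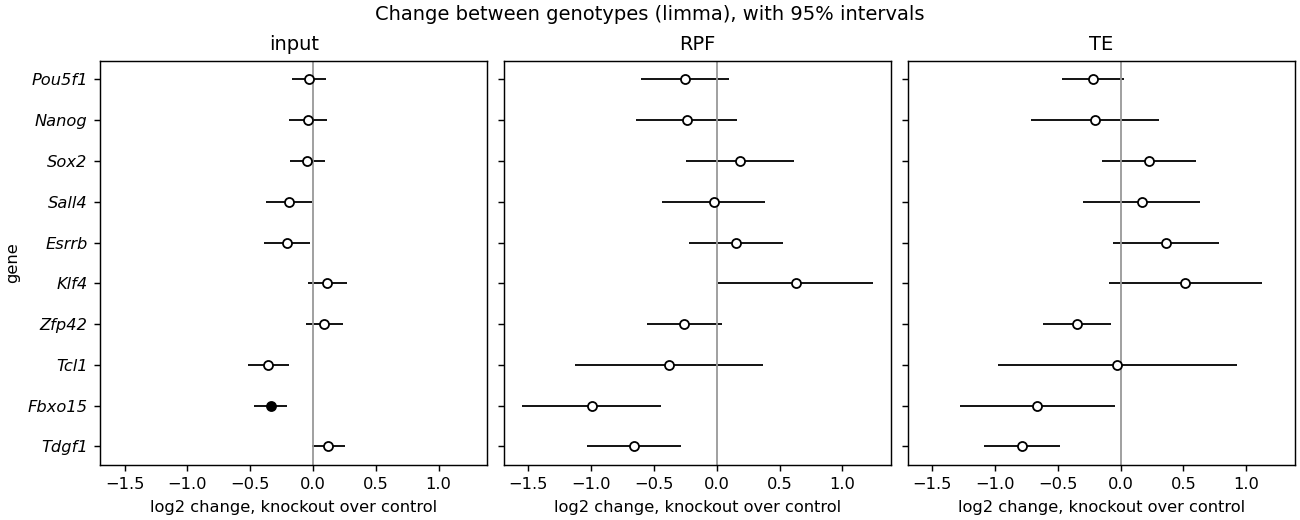
Change between genotypes (log2, knockout over control) of the 10 genes in input, RPF and TE from limma, with 95% intervals; the filled point passed an adjusted p of 0.05. Fbxo15 in input (-0.34) is the filled point, and the intervals widen from input to RPF and TE.

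Across the 8 libraries, with input and RPF values centred within their kind, the genes whose pattern was most like that of Pou5f1 were Atp5a1 (Pearson's r = 0.997), Htra2 (0.995) and Igf2bp2 (0.986) among 6239 genes. For Nanog they were Pias1 (0.988), Mpdu1 (0.986) and Fhl1 (0.985), and for Sox2 Cercam (0.970), Ankrd24 (0.966) and Fam136a (0.961). Among the members, Pou5f1 ran most closely with Tdgf1 (0.925), then with Fbxo15 (0.786) and Zfp42 (0.769), and opposite to Klf4 (-0.77) and Sox2 (-0.70). Nanog correlated with Pou5f1 at 0.390 only. These are descriptions over 8 points that share 4 groups and depths, and the largest deviations come from the shallow RPF libraries.

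The rest of the pluripotency network was read from further lists. Of 28 other transcription factors and cofactors, all 28 were listed and tested, and limma, edgeR and DESeq2 each called 0 in input, RPF and TE (6, 0 and 0 at an unadjusted p under 0.05 in limma, where the share of all genes tested was 12.7% in input, 10.8% in RPF and 13% in TE). Their input changes lay between -0.36 and 0.20 with a median of -0.03. Trim28, a co-repressor of retroviral elements, had the highest mean of input units among them, without regard to length. Its input values were 7990 and 8120 units in control and 7763 and 7430 units in knockout (-0.08, adjusted p = 0.605, limma). The telomere and replication-timing factor gene Rif1 had a change of 0.05, the cell-cycle factor gene Mybl2 of 0.04 and Mtf2, a Polycomb accessory gene, of 0.13, and none passed.

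Of 26 other markers of undifferentiated stem cells 25 were listed, and limma and edgeR called 0 in any comparison (9, 7 and 4 of 25 in input, RPF and TE at an unadjusted p under 0.05 in limma, against 12.7%, 10.8% and 13% of all genes tested). DESeq2 called Mkrn1 in input and Cd9 and Slc2a3 in TE. L1td1, an RNA-binding gene derived from a transposon, had the highest mean of input units, which is not a rank per length. Its input was 2119 and 2391 units in control and 2479 and 2705 in knockout (0.20, adjusted p = 0.320, limma). Its TE change was -0.59 (adjusted p = 0.328, limma). Dppa5a, which encodes a small RNA-binding protein, had an input change of -0.04, the glucose transporter gene Slc2a3 of -0.20 and the ubiquitin ligase gene Mkrn1 of 0.27 (adjusted p = 0.142, limma). Cd9, a tetraspanin gene named after its values were seen, had a TE change of -0.61 (adjusted p = 0.345 in limma and 0.019 in DESeq2). For Slc2a3 the TE went the other way. Its RPF was 2863 and 2917 units in control and 3098 and 3172 in knockout. Its input was 2413 and 2281 units in control and 2053 and 2038 in knockout.

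The LIF pathway was represented by 9 genes, of which limma, edgeR and DESeq2 called 0 in each comparison. In limma 2 in input, 0 in RPF and 0 in TE had an unadjusted p under 0.05. Over all genes tested the shares were 12.7%, 10.8% and 13%. The receptor gene Lifr had 406 and 357 units of input in control and 381 and 379 in knockout (0.00, adjusted p = 0.998), and Stat3, which carries the signal to the nucleus, had 205 and 180 units in control and 189 and 193 in knockout (-0.01, adjusted p = 0.973). The kinase genes Pim3 and Pim1, targets of STAT3, had input changes of -0.14 and -0.15. Of the families to which the members belong, 7 relatives were listed, some of them also among the other transcription factors. None of the 3 tools called any, and the input changes lay between -0.21 and -0.02. At an unadjusted p under 0.05 in limma were 1 of 6 genes tested in input and 0 of 5 in RPF and in TE. The shares of all genes tested are those given for the LIF pathway. Yy1, Sall1, Klf2 and Esrra had input changes of -0.02, -0.04, -0.19 and -0.08.

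Markers of other states and cell types were listed in part. Every listed gene held at least 1 read in each library, so a gene not listed need not be absent from these cells. Formative and primed epiblast genes gave 6 listed genes and 0 calls by any of the 3 tools. At an unadjusted p under 0.05 in limma were 2 of 5 genes tested in input, 1 of 5 in RPF and 1 of 4 in TE. Over all genes tested the shares were 12.7%, 10.8% and 13%. Input changes were 0.15 for Dnmt3a, 0.19 for Dnmt3b, -0.18 for Sox4 and 0.16 for Otx2. Of 14 primitive endoderm markers 8 were listed, and the defining factor genes Gata4, Gata6, Sox17, Sox7, Foxa2 and Pdgfra were not among them. The basement membrane genes Col4a1 (0.67, adjusted p = 0.0015) and Col4a2 (0.70, 0.0096) and the endocytic receptor gene Cubn (0.74, 0.017) rose in knockout input (DESeq2 called Lama1 in place of Cubn), while the laminin genes Lamc1, Lamb1 and Lama1 had changes of -0.04, 0.19 and 0.37 and did not pass. The summed input of the 8 listed genes was 2521 and 2408 units in control and 2759 and 2924 in knockout.

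Of 12 trophoblast markers 4 were listed, without Cdx2, Eomes or Elf5, and Peg10, an imprinted gene of the placenta, rose (0.71, adjusted p = 0.0086), while Tfap2c (-0.26) and Krt8 (0.52, adjusted p = 0.057) did not pass and Ascl2 was under the filter. Their summed input was 287 and 272 units in control and 385 and 442 in knockout. Of 12 mesoderm and neural markers 4 were listed, and Sox11 fell in limma and edgeR but was not called by DESeq2 (-0.59, adjusted p = 0.029 in limma), with changes of 0.06 for Tubb3, -0.11 for Nes and -0.31 for Sox1. Of 13 fibroblast markers 3 were listed (Fn1 -0.24, Vim -0.13, Cald1 0.41), with 0 calls by any of the 3 tools and 2 at an unadjusted p under 0.05 in limma in input. Of 8 genes of the 2-cell-like state Zscan4d was listed, and it fell (-0.63, adjusted p = 0.048). None of the 3 tools called a gene of the endoderm, trophoblast, mesoderm and neural, or fibroblast lists in RPF or TE. Few of these genes were tested there. At an unadjusted p under 0.05 (limma) were 2 of 7, 1 of 3, 0 of 1 and 1 of 2 genes tested in RPF. In TE there were 0. The shares of all genes tested were 10.8% in RPF and 13% in TE. In input the counts were 6 of 7, 3 of 3, 2 of 4 and 2 of 3, against 12.7% of all genes tested. The input values moved beside the lower input of Fbxo15, and their part in it was not tested.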

How the data were processed

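Per the study's methods, reads were trimmed, filtered on quality, cleared of rRNA and tRNA and aligned to mm10 gene models with Bowtie (version not stated there or in the labels), and RPFs were taken over coding sequence. Signal values, as the authors deposited them, carry the name RPKM. Each was a whole number of reads times a constant of its library, with no division by length. The log2 fold change column deposited by the authors holds their change of TE and was used only to compare signs. Columns of unknown samples numbered 0.

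Members and lists were chosen with earlier results of these data known. Input, RPF and TE (interaction of genotype and library kind) were tested with limma 3.58.1 (lmFit, eBayes with trend, two-sided tests, R 4.3.3) on log2(value + 10), for genes whose mean reached 10 in input and 50 in RPF, with Benjamini-Hochberg adjustment over all genes tested and a threshold of 0.05. edgeR 4.0.16 and DESeq2 1.42.0 ran on the recovered reads, and each tool was tested on simulated data. Further alternatives used pseudocounts of 1 and 30, genes without a filter or with a stricter one (100 and 200), equalised medians, thinned reads, a replicate block and each library left out. Named were all 10 members, the genes of each list that passed and up to 4 with the highest mean input, and the 3 genes most like Pou5f1, Nanog and Sox2. Identifiers matched GENCODE M21 for 8125 of 8125 genes. Per-kilobase values used the length of 1 transcript a gene, and those of input take its reads as counted over the whole transcript. Counting intervals (95%) cover counting error only, since PCR copies are not independent molecules. A batch or a difference between clones cannot be told apart from genotype.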

Additional observations from a re-analysis of the deposited data

How the results depend on the processing

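The 3 tests held 394 values of single genes that kept direction and side of the threshold, 20 that passed where they had not, 4 that no longer passed (Fbxo15 in input, given above) and 12 that turned sign. In input the genes called numbered 14 with a stricter filter and 46 with DESeq2, and the members called 0 with a stricter filter and 0 with thinned reads. In RPF the genes called numbered 84 with a stricter filter, 21 with equalised medians and 118 with edgeR, and the members called 2 with a stricter filter and 2 with edgeR. In TE they numbered 40, 72 and 190 genes with a stricter filter, edgeR and DESeq2, with 1 member in each. Leaving out 1 library gave 43 to 599 genes and 0 to 4 members in input, 34 to 873 genes and 0 to 3 members in RPF, and 0 to 1345 genes and 0 to 1 members in TE. Each input library moved the input count, to 72 or 599 genes without control input replicate 1 or 2 (1 and 4 members) and to 61 or 43 without knockout input replicate 1 or 2 (0 members in each). The RPF and TE counts moved without control RPF replicate 2 (60 genes in RPF) and without knockout RPF replicate 1 (873 and 1345 genes) or 2 (759 and 1113). In each case 1 library stands for its group and is assumed to vary like the others. The cause was not tested.

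Between libraries of the same number the deviations correlated weakly (r between 0.0051 and 0.0905 across 6240 genes). The RPF libraries held a median of 7 to 55 reads a gene, and counting noise keeps r low there. This check therefore cannot decide whether input and RPF of the same number came from 1 culture. With the replicate block 69 genes and 2 members were called in input, 126 genes and 2 members in RPF, and 3 genes and 0 members in TE. Signs turned for Sall4 in RPF with thinned reads (0.15) and for Tcl1 in TE with thinned reads (0.19). With 1 library left out, signs also turned within these ranges: -0.15 to 0.11 for Sall4 and -0.86 to 0.094 for Tcl1 in RPF, -0.50 to 0.45 for Tcl1 and -0.40 to 0.000315 for Nanog in TE, and -0.093 to 0.0043 for Sox2 and -0.11 to 0.025 for Nanog in input. The excess of the members' median TE over that of all genes was 1.08 in control and 1.26 in knockout when length corrected, an alternative chosen after seeing the data. Depth limits the RPF values of the knockout, where 1 read was worth 8.22 and 15.6 units.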
